A study of Mus musculus with 2 samples.

Results

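The genes described here are 34 genes of cholesterol and fatty acid synthesis and their regulators, taken by symbol from the 27998 genes of a single-cell RNA count matrix of mouse adipocyte precursor cells. All 34 were found. They were divided by role into a sterol arm of 20 genes, 5 regulators, and a fatty acid and glycerolipid arm of 9 genes. The members were named from the known pathways and not by their counts. The cells were flow-sorted as adipocyte precursors from the subcutaneous fat of wild-type pups 12 days old, which had been cross-fostered onto dams whose milk fat had a high or a low n-6/n-3 ratio of polyunsaturated fatty acids. Each diet contributed 1 sample, for which the labels state 3000 sorted cells, captured with 10x Genomics 3′ version 2 chemistry that counts unique molecular identifiers (UMIs) near the 3′ end of transcripts. The labels call the cells fresh in 1 place and frozen and thawed in another, and do not say how many pups were pooled. The matrix joins both libraries and marks each barcode with suffix 1 or 2. Which suffix belongs to which diet is not stated, so the libraries are called 1 and 2 and no comparison of diets is made. As each condition has 1 library and no replicate, no p-value is given, and every interval covers counting error alone.

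Cells make cholesterol from acetyl-CoA through the mevalonate pathway, then squalene, lanosterol and the late sterols. The transcription factor SREBP2, encoded by Srebf2, switches these genes on when membrane sterol is low, while SREBP1, encoded by Srebf1, acts more on fatty acid synthesis. Scap escorts both factors from the endoplasmic reticulum for cleavage, and the sterol-regulated anchors Insig1 and Insig2 hold them back. In adipose tissue the fatty acid arm is best known from mature adipocytes, which store its product as triglyceride.

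Promoter sequences are shown for 5 members, because these carry the contrast described below: Hmgcs1, Idi1 and Cyp51 from the sterol arm, the regulator Insig1, and Fasn from the fatty acid arm. Each is the RefSeq window on GRCm38.p6 from 250 bases before to 50 bases after the annotated start, printed 5′ to 3′ on the strand of the gene. Capitals mark TCACNCCAC, the letters of a sterol regulatory element with 1 free base, and CCAAT, the letters read by the factor NF-Y, which can appear as ATTGG where the match is on the other strand. The windows are chr13:119690101-119690400, plus strand, for Hmgcs1, chr13:8885356-8885655, plus strand, for Idi1, chr5:4104648-4104947, minus strand, for Cyp51, chr5:28071162-28071461, plus strand, for Insig1, and chr11:120824498-120824797, minus strand, for Fasn.
Hmgcs1: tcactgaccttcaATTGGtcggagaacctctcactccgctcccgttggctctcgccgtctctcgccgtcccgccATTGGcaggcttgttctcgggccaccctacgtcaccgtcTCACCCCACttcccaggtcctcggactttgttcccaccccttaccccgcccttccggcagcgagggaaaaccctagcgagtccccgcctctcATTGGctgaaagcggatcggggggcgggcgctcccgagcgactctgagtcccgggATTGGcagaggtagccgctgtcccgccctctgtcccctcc
Idi1: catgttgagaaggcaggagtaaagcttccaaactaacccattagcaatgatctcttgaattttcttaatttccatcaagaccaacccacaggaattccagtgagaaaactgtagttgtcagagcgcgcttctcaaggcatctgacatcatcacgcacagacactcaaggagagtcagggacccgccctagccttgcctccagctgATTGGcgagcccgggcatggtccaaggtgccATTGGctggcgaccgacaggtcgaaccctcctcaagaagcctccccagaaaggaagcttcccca
Cyp51: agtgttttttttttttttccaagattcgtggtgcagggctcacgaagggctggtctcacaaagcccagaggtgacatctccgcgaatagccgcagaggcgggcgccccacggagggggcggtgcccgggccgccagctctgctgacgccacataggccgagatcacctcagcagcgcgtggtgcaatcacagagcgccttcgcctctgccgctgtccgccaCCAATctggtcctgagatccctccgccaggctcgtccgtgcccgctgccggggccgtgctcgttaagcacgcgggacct
Insig1: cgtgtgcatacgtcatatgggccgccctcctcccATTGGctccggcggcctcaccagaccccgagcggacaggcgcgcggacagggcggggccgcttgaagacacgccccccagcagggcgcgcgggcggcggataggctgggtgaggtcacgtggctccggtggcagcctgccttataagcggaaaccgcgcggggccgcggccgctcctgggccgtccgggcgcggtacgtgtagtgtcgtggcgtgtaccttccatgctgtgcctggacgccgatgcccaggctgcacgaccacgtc
Fasn: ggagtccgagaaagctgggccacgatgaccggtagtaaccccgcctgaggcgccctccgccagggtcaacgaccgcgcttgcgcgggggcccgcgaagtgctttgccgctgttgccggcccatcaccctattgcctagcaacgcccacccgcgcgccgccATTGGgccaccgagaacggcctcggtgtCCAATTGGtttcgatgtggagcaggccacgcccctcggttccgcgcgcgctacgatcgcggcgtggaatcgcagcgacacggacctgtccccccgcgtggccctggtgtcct

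In these windows the TCACNCCAC letters were found in Hmgcs1, where their first base was at -137 from the start. RefSeq windows were matched for 28 of the 34 members, some with more than 1 start, which gave 38 windows. Of these, 1 member window held TCACNCCAC on either strand (2.63%), against 408 of all 32851 windows (1.24%). The full 10-letter element, with no free base, was in 0 of the 38 member windows and in 30 of all windows (0.0913%). CCAAT on either strand, a search added after the data were seen, was in 15 of 19 windows of the sterol arm (78.9%), 5 of 10 of the regulators (50%) and 4 of 9 of the fatty acid arm (44.4%), against 37.4% of all windows. By gene, 15 of the 16 sterol-arm members with a window held it. Base composition was not matched in these shares. A match of letters is a description of the window and does not show binding.

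Of 6905 barcodes, 3321 had suffix 1 and 3584 had suffix 2, with 42092816 and 43491307 UMIs, and 17 barcode sequences occurred with both suffixes. Both libraries thus held more barcodes than the 3000 sorted cells that the labels state, and the reason was not tested. At least 500 detected genes and at most 10% mitochondrial counts were required, which kept 6885 barcodes. A further 115 with at least 5 UMIs from at least 3 genes of another cell type were set aside, most of them endothelial (53), macrophage or monocyte (49) or mural (40). The remaining 6770 precursor cells, 3242 in library 1 and 3528 in library 2, had median depths of 12946 and 12111 UMIs. States were set from marker UMIs that include no lipid gene. F3-type cells had at least 5 UMIs from at least 3 genes of an F3, Vit and Gdf10 stromal list. The other cells were ranked by the log2 ratio of committed markers (Icam1, Dlk1, Col15a1 and 5 more) to progenitor markers (Dpp4, Pi16, Wnt2 and 6 more) and cut into 3 classes of equal size, called progenitor, middle and committed. These held 917, 1012 and 971 cells in library 1 and 1094, 998 and 1040 in library 2, beside 342 and 396 F3-type cells. The ranking is continuous, and 775 cells lay within 0.25 of the lower cut and 253 within 0.25 of the upper cut. Levels are given as CPM, UMIs scaled to 1000000 in each sum. Markers left out of the ranking went the same way: Lpl, Fabp4, Cd36, Pparg, Plin2 and Cebpa summed to 2180 and 2060 CPM in the committed class, against 545 and 513 CPM in the progenitor class. Mature adipocyte markers (Adipoq, Plin1, Cidec, Retn, Lep and Aqp7) summed to at most 5.43 CPM in any state. The same list had been used to set barcodes aside (12 by its rule), so a low sum was in part set by that filter.

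The first comparison set the committed class against the progenitor class, summing UMIs per state and library. A gene was called when it was at least 1.5-fold apart in the same direction in both libraries, among genes with at least 10 CPM in at least 1 of the sums. The sterol arm was higher in committed cells, and the fatty acid arm was not. In the committed class the 20 sterol-arm genes together made up 609 and 669 CPM, against 283 and 299 CPM in the progenitor class, for libraries 1 and 2. The 9 fatty acid and glycerolipid genes together made up 147 and 163 CPM in the committed class, against 143 and 151 CPM in the progenitor class. The 5 regulators made up 181 and 189 CPM in the committed class, against 118 and 126 CPM in the progenitor class. Since CPM is a share of all transcripts, more of a transcript per cell and less of the others cannot be told apart in these values.

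Among the 15 sterol-arm members tested, 9 were called higher in the committed class and 0 lower, where 7.04% of all 7212 genes tested were called higher and 8.1% lower. Their median log2 fold was 1.02, and the median over all genes tested was -0.11. Hmgcs1, the synthase that condenses acetyl-CoA units into HMG-CoA, had 171 and 174 CPM in committed cells of libraries 1 and 2, against 59.9 and 58.8 CPM in progenitor cells. These are 2.85-fold (95% interval 2.62 to 3.11) and 2.95-fold (2.72 to 3.20) differences. Idi1, the isomerase that makes the second isoprenoid building block, had 79.0 and 86.4 CPM in committed cells, against 15.2 and 16.2 CPM in progenitor cells. At 5.20-fold (4.44 to 6.14) and 5.31-fold (4.61 to 6.16), Idi1 had the largest fold of the 34 members in this comparison. Fdps, which joins the building blocks into farnesyl diphosphate, had 34.9 and 44.9 CPM in committed cells, against 17.4 and 22.3 CPM in progenitor cells, 2.0-fold and 2.01-fold apart. Fdps overlaps the predicted gene Gm43738 on the same strand, so its count is less certain.

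The steps that commit carbon to sterols were higher as well. Fdft1, the squalene synthase, had 12.7 and 12.0 CPM in committed cells, against 6.07 and 6.07 CPM in progenitor cells. Sqle, the epoxidase that follows it, had 42.3 and 42.5 CPM in committed cells, against 11.9 and 14.5 CPM in progenitor cells, 3.55-fold (2.95 to 4.32) and 2.93-fold (2.49 to 3.47). For both enzymes each library of the committed class lay above both libraries of the progenitor class. Of the enzymes that work on lanosterol and the late sterols, Cyp51, the lanosterol demethylase, had 43.1 and 51.2 CPM in committed cells, against 14.6 and 19.8 CPM in progenitor cells. Msmo1, the C4 methyl oxidase, had 63.4 and 75.8 CPM in committed cells, against 23.9 and 24.6 CPM in progenitor cells. Sc5d, the C5 desaturase, had 27.8 and 31.2 CPM in committed cells, against 9.76 and 11.1 CPM in progenitor cells. These 3 genes were between 2.58-fold and 3.08-fold higher in the committed class. Stard4, a carrier that moves cholesterol between membranes, had 21.1 and 27.2 CPM in committed cells, against 9.76 and 9.83 CPM in progenitor cells.

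The arm did not move as a block. Mvk and Pmvk, the kinases that phosphorylate mevalonate, stood between 0.823-fold and 1.03-fold, and Ebp, the sterol isomerase, at 0.886-fold and 0.828-fold, and none of these was called. Hsd17b7, a late keto-reductase, stood at 1.2-fold and 1.29-fold. Mvd, the decarboxylase that follows these kinases, passed 1.5-fold in library 2 (1.77) and not in library 1 (1.41). Acat2, a cytosolic thiolase that begins the pathway, did likewise at 1.12-fold and 1.72-fold in libraries 1 and 2, and its close copy Acat3 could share reads with it. Lss, Dhcr7, Nsdhl, Tm7sf2 and Ggps1 stayed below 10 CPM in every sum and were not tested, and of these Nsdhl, a late sterol dehydrogenase, had 6.36 and 8.46 CPM in committed cells, against 3.28 and 4.18 CPM in progenitor cells.

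Among the 5 regulators, all tested, 2 were called higher and 0 lower. Insig1, which is itself a target of SREBP2, had 96.2 and 95.9 CPM in the committed class, against 40.4 and 41.2 CPM in the progenitor class, 2.38-fold (2.14 to 2.65) and 2.33-fold (2.10 to 2.58). Srebf2 had 31.5 and 36.2 CPM in the committed class, against 19.4 and 20.7 CPM in the progenitor class, 1.63-fold (1.38 to 1.93) and 1.75-fold (1.5 to 2.04). Their paralogs were not called. Insig2 had 27.4 and 28.4 CPM in committed cells, against 31.2 and 30.8 CPM in progenitor cells. Srebf1 had 13.3 and 13.9 CPM in committed cells, against 14.5 and 17.6 CPM in progenitor cells. Scap was at 12.4 and 14.3 CPM in committed cells, against 12.2 and 15.8 CPM in progenitor cells. For these 3 genes no fold reached the limit in either library, and the difference between the paralogs of a pair was not tested.

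**Figure D1:**
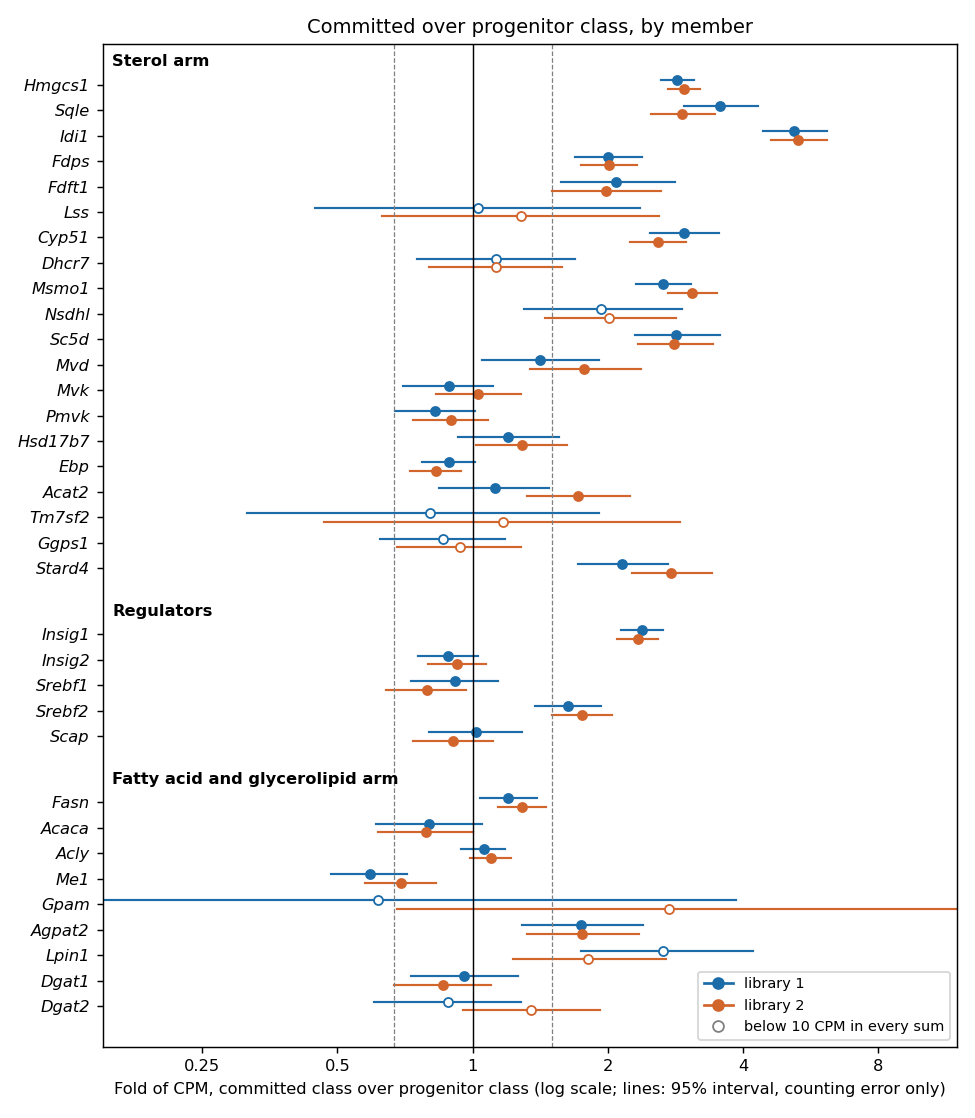
Fold of CPM, committed class over progenitor class, for each of the 34 members on a log axis, with library 1 and library 2 as separate points and 95% intervals for counting error; open points mark members below 10 CPM in every sum. Sterol-arm members such as Idi1 (5.20 and 5.31) lie right of the 1.5-fold line, while Fasn (1.2 and 1.29) and Acly (1.06 and 1.10) lie near 1.

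In the fatty acid and glycerolipid arm 6 of 9 members were tested, 1 was called higher and 0 lower, with a median log2 fold of -0.02. Fasn, the fatty acid synthase, had 37.0 and 43.7 CPM in the committed class, against 30.8 and 33.9 CPM in the progenitor class, which is 1.2-fold (1.04 to 1.39) and 1.29-fold (1.14 to 1.46). Acly, which supplies cytosolic acetyl-CoA to both arms, had 55.3 and 59.2 CPM in committed cells, against 52.4 and 53.9 CPM in progenitor cells. Acaca, the acetyl-CoA carboxylase, had 8.72 and 9.88 CPM in committed cells, against 10.9 and 12.6 CPM in progenitor cells. None of these synthesis enzymes reached 1.5-fold in either library. Me1, the malic enzyme that supplies NADPH, had 14.8 and 16.9 CPM in committed cells, against 25.1 and 24.5 CPM in progenitor cells, and at 0.591-fold and 0.692-fold it was past the limit in library 1 alone. The called member was Agpat2, an acyltransferase of triglyceride and phospholipid synthesis, with 10.2 and 10.8 CPM in committed cells, against 5.82 and 6.14 CPM in progenitor cells. Agpat2 lies at the level minimum, and its 1.74-fold (1.29 to 2.39) and 1.75-fold (1.32 to 2.34) differences rest on few counts. Dgat1, which makes triglyceride, stood at 0.959-fold and 0.860-fold. Gpam, Lpin1 and Dgat2 stayed below 10 CPM, and of these Lpin1, a phosphatidate phosphatase, was 2.65-fold and 1.81-fold higher at 6.81 and 5.96 CPM in committed cells, against 2.54 and 3.28 CPM in progenitor cells.

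Beyond the members, 35 further genes of sterol and fatty acid handling were listed and 24 were tested, of which 3 were called lower. The stearoyl-CoA desaturases Scd1 and Scd2, which make monounsaturated fatty acids, were among them. Scd1 had 21.3 and 26.5 CPM in committed cells, against 41.6 and 45.2 CPM in progenitor cells, and Scd2 had 57.0 and 67.4 CPM in committed cells, against 118 and 134 CPM in progenitor cells. Mylip, a ubiquitin ligase that removes lipoprotein receptors and is switched on by sterol-sensing LXR, had 22.6 and 23.2 CPM in committed cells, against 47.7 and 46.2 CPM in progenitor cells. For these 3 genes each library of the committed class lay below both libraries of the progenitor class.

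Depth and dissociation genes moved with the states. Median depth was 11567 and 10756.5 UMIs in the committed class, against 13796 and 13234 UMIs in the progenitor class. A list of 12 early-response and heat-shock genes summed to 8190 and 7850 CPM in the committed class, against 5690 and 5400 CPM in the progenitor class. Within cells at or below the median of these genes, and within cells above it, 9 sterol-arm members were called higher in each set, where 6.76% and 7.43% of all genes tested were called higher and 8.44% and 8.97% lower. Within cells at or below the median depth 10 were, where 7.2% of genes were called higher and 8.79% lower. Within deeper cells 9 were, where 6.91% were called higher and 6.97% lower. The fatty acid arm had 0 members called higher in the shallower cells and in the cells low in stress genes, and 1 in the deeper cells and in the cells high in stress genes.

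The middle class, which lies between the others by rank, was set against the progenitor class as well. Cells of a single age show no order in time. The sterol-arm sum was 283 and 299 CPM in the progenitor class, 364 and 380 CPM in the middle class and 609 and 669 CPM in the committed class. In the middle class 1 of 12 tested sterol-arm members was called higher than in the progenitor class and 0 lower, where 0.806% of 7068 genes were called higher and 0.566% lower. It was Idi1, with 32.5 and 32.9 CPM in middle cells, against 15.2 and 16.2 CPM in progenitor cells. Hmgcs1, with 86.1 and 89.6 CPM in middle cells, passed 1.5-fold in library 2 (1.52) and not in library 1 (1.44). The median log2 fold of the arm was 0.49, that of the fatty acid arm was 0.10, and 0 of the 5 fatty acid members tested were called in either direction.

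Cells were then cut into 10 steps of the same ranking, a cut chosen after the data were seen. The sterol arm stayed between 271 and 306 CPM over the first 4 steps in both libraries. It was 320 and 326 CPM in the fifth, 401 and 384 CPM in the sixth and 495 and 542 CPM in the seventh, and it ended at 725 and 776 CPM in the last. The increase therefore lay in the later part of the ranking. Hmgcs1 was at 61.2 and 57.5 CPM in the first step and at 217 and 226 CPM in the last, and Insig1 at 50 and 44.2 CPM in the first and 119 and 111 CPM in the last. The fatty acid arm stayed between 137 and 171 CPM over all 10 steps. Inside that flat sum Me1 was at 29.9 and 25.4 CPM in the first step and 13.2 and 16.8 CPM in the last, while Fasn was at 29.9 and 36.2 CPM in the first and 37.9 and 47.0 CPM in the last.

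**Figure D2:**
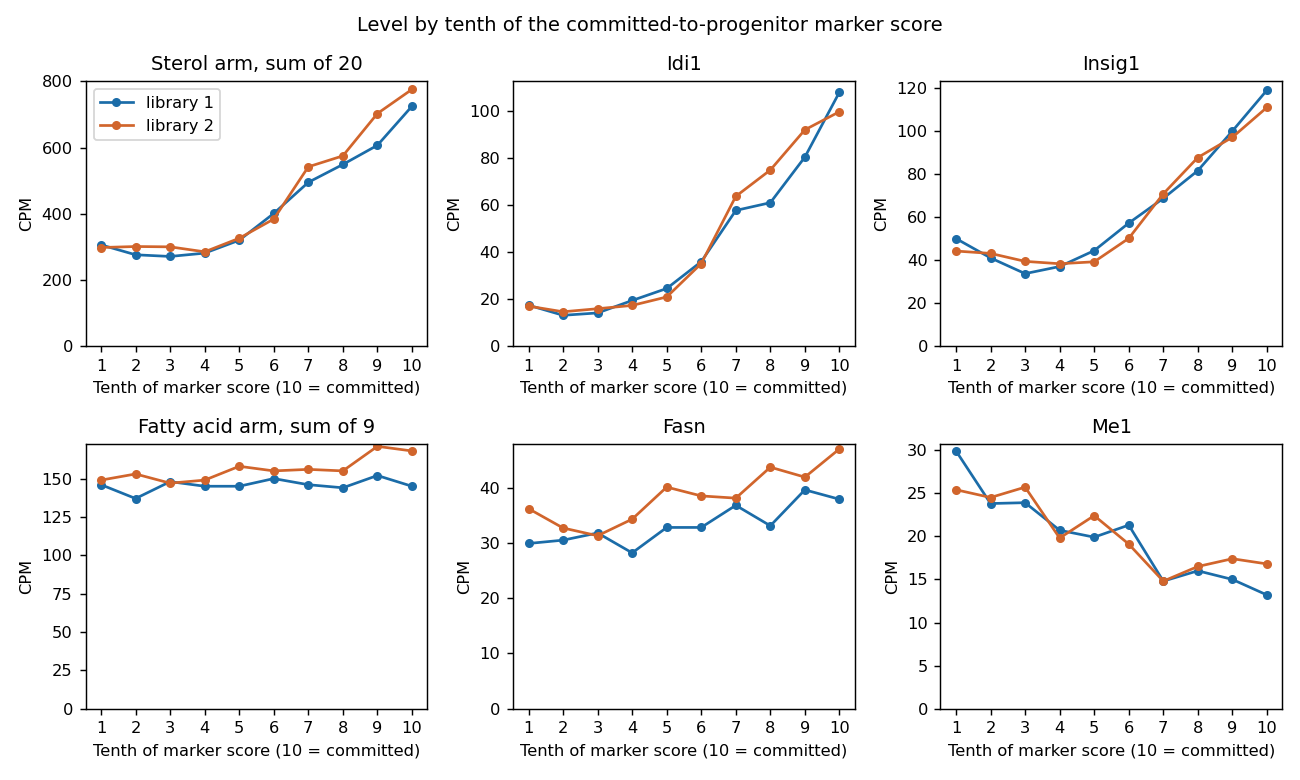
Summed CPM of the sterol arm and of the fatty acid and glycerolipid arm over 10 equal steps of the ranking from progenitor to committed markers, for each library. The sterol arm is flat over the first 4 steps (271 to 306 CPM) and reaches 725 and 776 CPM in the last, and the fatty acid arm stays between 137 and 171 CPM.

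Because the ranking mixes loss of progenitor markers with gain of committed markers, cells were also divided at the median of each marker sum, again after the data were seen. Cells high in committed and low in progenitor markers had 589 and 647 CPM of sterol-arm transcripts. Cells low in both had 393 and 403 CPM, and cells high in both had 316 and 331 CPM. Cells low in committed and high in progenitor markers had 283 and 293 CPM. At either level of committed markers, sterol-arm transcripts were more abundant in cells low in progenitor markers, and at either level of progenitor markers they were more abundant in cells high in committed markers. The fatty acid arm stood between 137 and 163 CPM in all 4 groups. The groups also differ in marker level within a name: cells high in both had medians of 9.15 and 9.92 committed-marker UMIs per 10000, against 23.0 and 24.4 in cells high in committed markers alone.

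F3-type cells formed the remaining precursor state. The sterol arm summed to 370 and 391 CPM in F3-type cells, against 283 and 299 CPM in the progenitor class, and the fatty acid arm to 131 and 141 CPM in F3-type cells, against 143 and 151 CPM in the progenitor class. Of 13 sterol-arm members tested 1 was called higher and 0 lower, where 6.26% of 7290 genes were called higher and 4.61% lower. Idi1 had 35.6 and 38.0 CPM in F3-type cells, against 15.2 and 16.2 CPM in progenitor cells. In the fatty acid arm Agpat2 was called higher, with 10.7 and 12.8 CPM in F3-type cells, against 5.82 and 6.14 CPM in progenitor cells. Me1 was called lower, with 12.2 and 14.2 CPM in F3-type cells, against 25.1 and 24.5 CPM in progenitor cells. In F3-type cells below the median of the stress genes, 0 fatty acid members were called in either direction. Of the further lipid genes Mid1ip1, an activator of acetyl-CoA carboxylase, was 3.84-fold and 3.01-fold higher, and Mylip stood at 0.580-fold and 0.619-fold. The stress list summed to 8610 and 8110 CPM in F3-type cells, above the 5690 and 5400 CPM of the progenitor class, and its part in these values was not tested further.

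Sterol-arm transcripts were spread unevenly among cells of a state. Each cell was thinned to 7610 UMIs, the 10th percentile of depth, which left out 368 and 309 shallower cells. The mean number of sterol-arm UMIs per thinned cell was 2.11 and 2.28 in the progenitor class, 2.66 and 2.89 in the middle class and 4.69 and 5.10 in the committed class, and 2.80 and 2.98 in F3-type cells. The variance was 3.88 and 4.38 times the mean in the committed class, against 1.71 and 1.84 times in the progenitor class. It was 3.085 and 3.837 times the mean in the middle class and 2.817 and 3.606 times in F3-type cells. Counting error alone gives a ratio of 1. For the fatty acid arm these ratios were 1.16 and 1.04 in the committed class and 1.01 and 1.06 in the progenitor class. Classes and arms differ in their mean, and the ratio was not compared at equal means. Thinned cells with at least 10 sterol-arm UMIs made up 11.9% (exact binomial 95% interval 9.8 to 14.3) and 13.9% (11.7 to 16.3) of the committed class, against 0.491% and 0.780% of the progenitor class. They made up 3.11% and 4.10% of the middle class. No doublet caller was used, and a free-RNA share of these counts was not tested. Without the deepest 5% of cells 9 sterol-arm members were called higher in the committed class.

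**Figure D3:**
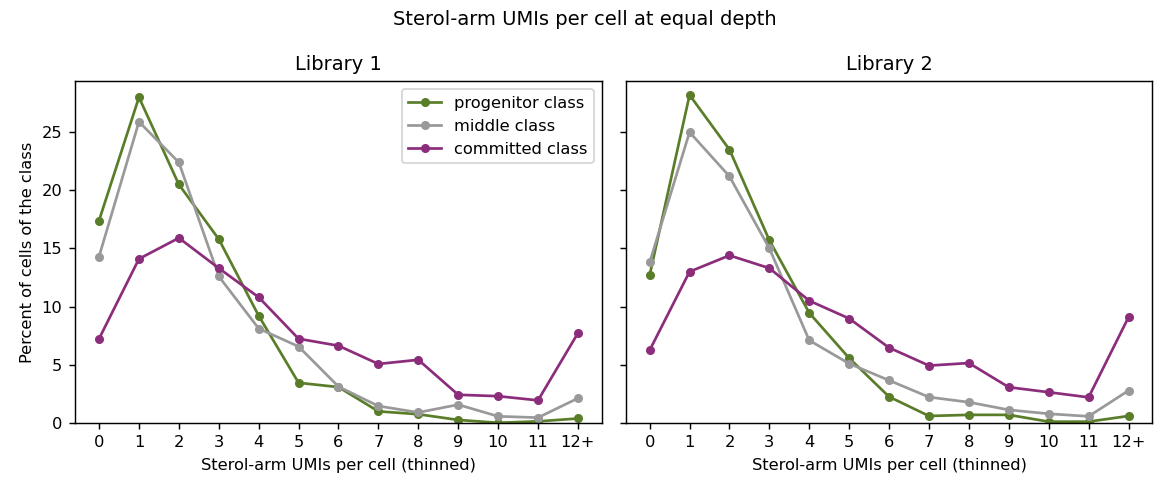
Percent of cells of each class (vertical axis) by the number of sterol-arm UMIs per cell after thinning to 7610 UMIs (horizontal axis, the last point holding 12 or more), in library 1 and library 2. The committed class has a long upper tail, with 11.9% and 13.9% of its cells at 10 or more UMIs, against 0.491% and 0.780% of the progenitor class.

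Whether the members vary together from cell to cell within a state was asked by splitting cells on 3 of them. Within each class and library, thinned cells at or above the 80th percentile of summed Hmgcs1, Idi1 and Sqle UMIs (sterol-high) were set against cells at or below the 20th percentile (sterol-low). The low limit was 0 UMIs in every class, and the high limit was 1 UMI in the progenitor class, 2 in the middle class and 4 in the committed class, so ties made the groups larger than the percentiles alone would. There were 755 and 859 sterol-high cells, against 1119 and 1267 sterol-low cells. The 3 index genes chose the cells and are not read out.

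Of 12 tested sterol-arm members outside the index, 9 were called higher in sterol-high cells and 0 lower, where 0.27% of 7029 genes, 19 in all, were called higher and 0.0996% lower. Fdps had 45.1 and 48 CPM in sterol-high cells, against 12.6 and 16.9 CPM in sterol-low cells, 3.58-fold (2.85 to 4.54) and 2.84-fold (2.34 to 3.45). Fdft1 had 15.8 and 13.6 CPM in sterol-high cells, against 4.34 and 4.36 CPM in sterol-low cells. Cyp51 had 39.9 and 51.7 CPM in sterol-high cells, against 12.7 and 16.3 CPM in sterol-low cells. Msmo1 had 61.1 and 69.0 CPM in sterol-high cells, against 18.4 and 23.5 CPM in sterol-low cells. Fdps, Fdft1, Cyp51 and Msmo1 stood between 2.84-fold and 3.62-fold. Stard4 stood at 3.02-fold and 2.48-fold, and Sc5d at 2.23-fold and 2.50-fold. Mvd (1.79 and 1.81), Acat2 (1.74 and 1.63) and Hsd17b7 (1.64 and 1.55) were called with smaller folds, although none of these was called between the committed and progenitor classes. Mvk passed in library 1 alone (1.68 and 1.46), Pmvk did not (1.43 and 1.18), and Ebp stayed at 1.03-fold and 1.09-fold.

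Insig1 had 95.6 and 85.8 CPM in sterol-high cells, against 35.2 and 37.3 CPM in sterol-low cells, 2.71-fold (2.35 to 3.13) and 2.30-fold (2.01 to 2.63). Srebf2 was just past the limit, at 1.55-fold (1.23 to 1.95) and 1.5-fold (1.24 to 1.83). That call was not kept in the committed class alone (1.46 and 2.06), in the progenitor class alone (1.42 and 1.04) or with the index exchanged for Fdps, Fdft1 and Cyp51 (1.36 and 1.68), and was kept in the middle class alone (1.82 and 1.6). Insig2 (1.10 and 1.07), Srebf1 (0.954 and 1.13) and Scap (1.18 and 1.17) were not called. In the fatty acid arm 0 of 5 tested members were called in either direction, with a median log2 fold of 0.03. Fasn came nearest, with 40.0 and 47.3 CPM in sterol-high cells, against 27.7 and 32.9 CPM in sterol-low cells, 1.44-fold (1.2 to 1.74) and 1.44-fold (1.23 to 1.69). Acly stood at 1.19-fold and 1.15-fold, Acaca at 1.02-fold and 1.03-fold, and Me1 at 1.10-fold and 0.797-fold. Members make up 11 of the 19 genes called higher.

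**Figure D4:**
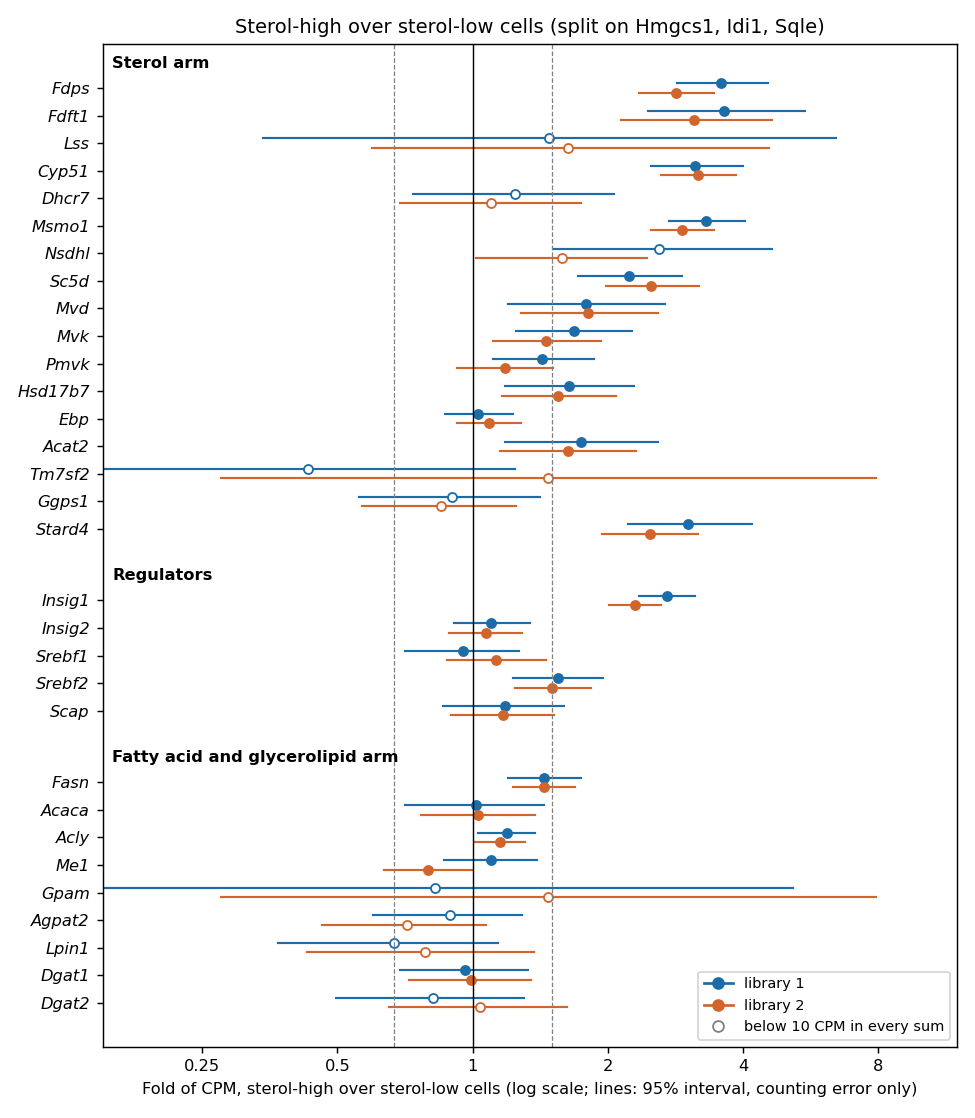
Fold of CPM, sterol-high over sterol-low cells, for the members outside the index genes on a log axis, with 95% intervals for counting error in each library; open points mark members below 10 CPM in every sum. Fdps, Fdft1, Cyp51, Msmo1 and Stard4 lie near 3-fold and Insig1 at 2.71 and 2.30, while the fatty acid arm lies around 1 with Fasn at 1.44 and 1.44.

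The pooled groups differed in their mix of classes. The committed class made up 25.4% and 24.9% of sterol-high cells, against 21.4% and 18.6% of sterol-low cells, and the middle class 27.0% and 24.4% of sterol-high cells, against 37.9% and 34.7% of sterol-low cells. Over the pooled cells the committed markers Col15a1 (1.57 and 1.47) and Dlk1 (1.40 and 1.37) and the left-out marker Cd36, a fatty acid transporter (1.55 and 1.77, called), were higher in fold than the progenitor marker Dpp4 (0.948 and 0.902). Within classes Dlk1 stood at 1.56-fold and 1.42-fold in the committed class, 0.913-fold and 0.9-fold in the middle class and 0.957-fold and 1.03-fold in the progenitor class. Col15a1, Dlk1, Cd36 and Dpp4 were picked after their values were seen, and other listed markers did not all go the same way. In the committed class the other committed markers ran from Col15a1 (1.46 and 1.33) down to Steap4 (1.16 and 0.947) and Prlr (0.996 and 0.88). Among progenitor markers in the progenitor class, Cd55 stood at 1.08-fold and 1.12-fold and Pi16 at 0.953-fold and 0.96-fold. Cd36 was called in the committed class (1.52 and 1.66) and in the middle class (1.65 and 1.58), and stood at 1.23-fold and 1.17-fold in the progenitor class. The part of the class mix in the pooled folds of the members was not tested beyond the values by class given next. Stress-gene medians were 54.0 and 49.9 UMIs per 10000 in sterol-high cells, against 51.9 and 48.2 in sterol-low cells. Exchanging the index for Fdps, Fdft1 and Cyp51 gave Hmgcs1 at 2.17-fold and 2.27-fold, Sqle at 2.40-fold and 2.20-fold and Idi1 at 2.94-fold and 2.84-fold, where 0.386% of genes were called higher.

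In the committed class alone the split set 192 and 214 sterol-high cells against 240 and 236 sterol-low cells. There 10 sterol-arm members were called higher, where 1.23% of 7213 genes were called higher and 1.62% lower. Fdps stood at 9.05-fold (5.49 to 16.8) and 5.41-fold (3.73 to 8.28), Msmo1 at 4.45-fold and 5.12-fold, and Insig1 at 4.35-fold and 3.62-fold. Fasn was called higher here, at 1.58-fold (1.10 to 2.28) and 1.75-fold (1.28 to 2.42), and Acaca lower, at 0.545-fold (0.199 to 1.26) and 0.634-fold (0.290 to 1.28), with intervals that include 1. In the middle class 10 sterol-arm members and Fasn (1.92 and 1.59) were called higher, where 0.987% of 7396 genes were called higher and 0.717% lower. In the progenitor class 0.111% of 7223 genes were called higher and 0.0969% lower. Sc5d was the only sterol-arm member called there, at 1.71-fold and 1.90-fold. Its interval in library 1 included 1 (0.999 to 3.01, and 1.25 to 2.93 in library 2). Fdft1 stood at 1.84-fold (0.922 to 3.85) and 3.21-fold (1.62 to 7.06) but was below 10 CPM in every sum and not tested. Fdps (1.94 and 1.41), Cyp51 (1.89 and 1.36) and Insig1 (1.54 and 1.27) were not called there. A single index UMI made a progenitor-class cell sterol-high. The difference in fold between classes was not tested.

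Cycling cells were those with at least 2 UMIs of Mki67 or Top2a, which gave 71 and 114 cells with a median depth of 16119 and 16380.5 UMIs, against 3171 and 3414 non-cycling cells with 12904 and 12029.5 UMIs. Of 14 sterol-arm members tested 1 was called higher in cycling cells and 0 lower, where 11.8% of 7727 genes were called higher and 0.997% lower. It was Fdft1, with 14.3 and 16.3 CPM in cycling cells, against 8.47 and 8.33 CPM in non-cycling cells, and its interval in library 1 included 1 (0.956 to 2.79, and 1.31 to 2.82 in library 2). Hmgcs1, Msmo1 and Insig1, which were called higher in committed cells, stood below 1-fold here without being called. Hmgcs1 had 72.6 and 73.4 CPM in cycling cells, against 102 and 103 CPM in non-cycling cells, 0.719-fold (0.566 to 0.891) and 0.717-fold (0.599 to 0.846). Msmo1 stood at 0.688-fold (0.455 to 0.971) and 0.588-fold (0.428 to 0.776), and Insig1 at 0.873-fold and 0.662-fold. TMM scaling lowered every fold here by 0.18 and 0.17 on the log2 scale in libraries 1 and 2, and with it Hmgcs1 and Msmo1 were called lower, as was Scap. Of the 6 fatty acid members tested 0 were called in either direction, with Fasn at 0.871-fold and 0.897-fold and Acly at 0.880-fold and 0.95-fold. The median log2 fold of these members was -0.19 in library 1 and 0.33 in library 2, so the libraries differed in direction. Among the further lipid genes Slc25a1, the citrate carrier that brings acetyl units to the cytosol, was called lower at 0.554-fold and 0.432-fold, and the retinol dehydrogenase Rdh11 higher at 1.68-fold and 2.25-fold. Cycling cells had median ranking scores of -2.07 and -2.54, against -2.12 and -2.11 in non-cycling cells.

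**Figure D5:**
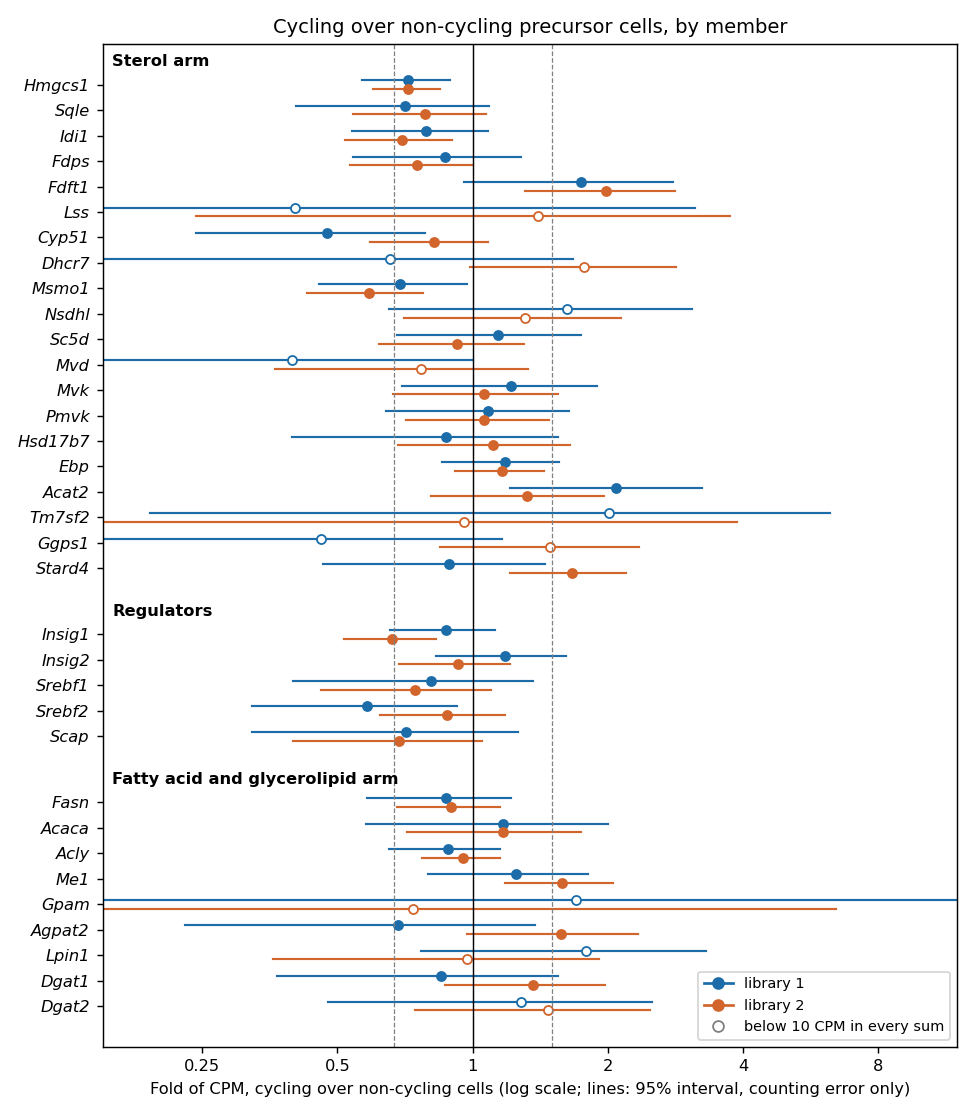
Fold of CPM, cycling over non-cycling precursor cells, for each member on a log axis, with 95% intervals for counting error in each library; open points mark members below 10 CPM in every sum. Intervals are wide because 71 and 114 cells were cycling, and Fdft1 (1.74 and 1.98) is the member past 1.5-fold in both libraries.

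Between the libraries the members differed little. Library 2 was set against library 1 within each class after TMM scaling, and a call needed 1.5-fold in all 3 classes. Of the 26 members tested 0 were called, where 0.179% of 7267 genes were called higher and 0.124% lower. The median log2 difference was 0.08 in the sterol arm and 0.12 in the fatty acid arm, beside 0.00 over all genes. Cyp51 was at 0.44, 0.16 and 0.25 and Fdps at 0.36, 0.13 and 0.36 in the progenitor, middle and committed classes, the same direction in each. Hmgcs1, at -0.03, 0.05 and 0.02, and Insig1, at 0.03, -0.04 and 0.00, stood near 0. With 1 library per condition these differences have no replicate spread to be read against, and no diet is attached to them.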

How the data were processed

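The authors deposited 1 joined matrix of raw UMI counts per gene and barcode, not normalized. The mm10 build, Seurat 3.0.1 and an unnumbered version of Cell Ranger are named in the submitters' processing notes, without roles. How the libraries were joined, and with what subsampling, the sources used here do not state. The members, marker lists, states and alternatives were chosen with earlier results of these data known.

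Counts were summed per state and library (library totals 42092816 and 43491307 UMIs) with numpy 2.4.6 and pandas 2.3.3. CPM are of the total count; the libraries were compared with TMM scaling (edgeR 4.0.16, scaling only). Folds add 0.5 counts to both sums. Poisson, conditional ratio and binomial intervals are exact, at 95% (scipy 1.17.1), and cover counting error only. Named are all members called in both libraries, those with high levels, and listed further lipid genes that were called. Col15a1, Dlk1, Cd36 and Dpp4 in the sterol-high split, and Nsdhl and Lpin1, were singled out after their values were seen. The sums were tested on simulated counts. Alternatives covered scaling (TMM, or size factors of DESeq2 1.42.0), the level minimum, each library alone, thinning, deepest cells, cycling cells, markers and cells above or below the median of stress genes or depth. No doublet caller was run. Gene overlaps are from GENCODE for GRCm38. Some results are not reported here.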

Additional observations from a re-analysis of the deposited data

How the results depend on the processing

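In the committed against progenitor classes, 9 to 11 sterol-arm members were called higher and 0 lower under every alternative run except a 50 CPM minimum, which tests fewer genes and left 4. Fatty acid members called higher (1 as reported) were 0 at 50 CPM, after thinning, in cells low in stress genes and in shallower cells, and 2 with no minimum; 1 was called lower in library 1 alone, without cycling cells and without Dlk1 as a marker. DESeq2 size factors raised all folds of library 2 by 0.11 on the log2 scale. In the middle class, sterol-arm members called higher (1 as reported) were 0 at 50 CPM, 2 with TMM scaling, thinning, without the deepest cells, in cells low in stress genes and in shallower cells, 4 in cells high in stress genes and 5 in library 2 alone.

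In F3-type cells, sterol-arm members called higher were 0 at 50 CPM, 3 in library 1 alone and in cells low in stress genes, and 2 in library 2 alone, with no minimum, without the deepest cells, in cells high in stress genes and in deeper cells. Fatty acid members called higher were 0 at 50 CPM and in cells low in stress genes and 2 with no minimum, and those called lower were 0 at 50 CPM, in cells low in stress genes and in shallower cells and 2 in library 2 alone. There Agpat2 reversed to -0.02 (log2) in cells low in stress genes.

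In cycling cells, sterol-arm members called higher were 0 at 50 CPM and in the committed class alone, 2 in either library alone and 3 in the progenitor class alone. Those called lower were 1 in either library alone and without the deepest cells, 2 with TMM or DESeq2 scaling and in the committed class, and 4 in the middle class. Fatty acid members called higher were 2 in library 2 alone and 1 in the progenitor class and in the committed class alone, and Slc25a1 reversed to 0.35 (log2) in the committed class.

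In the sterol-high split, sterol-arm members called higher (9 as reported) were 2 at 50 CPM, 6 with the exchanged index and 1 in the progenitor class, where Hsd17b7 reversed to -0.05 (log2). Fatty acid members called higher were 1 at each cell's own depth, in the committed class and in the middle class, and 1 was called lower in the committed class. The cause of these changes was not tested. The divisions by stress genes and depth and the split within middle cells were added after the data were seen. Depth limits Gpam, Lss and Tm7sf2, which had under 2 CPM in every state. Classes of cells were compared within each library. No comparison of diets, paired or unpaired, was possible because the suffixes carry no tie to a sample and each condition has 1 library.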
